A study of Mauremys reevesii with 3 samples.

Results

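The miR-15 and miR-16 family is a set of microRNAs (miRNAs, short RNAs that guide repression of messenger RNAs) with a common seed, the bases near the 5′ end that pair with targets. Its rows were found by name in a small RNA count table of the Chinese pond turtle (Mauremys reevesii), as every row called miR-15, miR-16, miR-195, miR-424 or miR-497 after its species prefix. This gave 20 of 1743 rows, all of them miR-15 or miR-16, and no row named miR-195, miR-424 or miR-497 was analysed here. The table covered 3 libraries from the whole, unsorted adrenal-kidney-gonad complex of embryos at Greenbaum stage 16, one each from eggs incubated at 26, 29 or 32 °C. In this species cool incubation gives mainly males and warm incubation mainly females. Each library was made from RNA of 3 biological samples pooled together, so a temperature had 1 library, no difference has a replicate check and no test across libraries exists. Intervals are 95% exact intervals that cover counting error only, and amplified reads are not independent molecules. A lower value in such mixed tissue can mean fewer cells of a type or less RNA per cell, which cannot be told apart.

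miRNAs are cut from a hairpin precursor that leaves a 5p and a 3p strand, one of which is usually kept in the silencing complex while the other is mostly degraded. In mammals the 5p strands of miR-15 and miR-16 repress cyclins, cyclin-dependent kinases, checkpoint kinases and the survival gene BCL2, and they slow entry into the cell cycle. Their hairpins lie in pairs, a miR-15 beside a miR-16, and their loss is known from chronic lymphocytic leukaemia.

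The sequences below are those the table gives for the rows that carry the results, in lower case with bases 2 to 8, the seed, in capitals. The first 5 are 5p strands with 1 shared seed, and the last is the 3p strand of miR-15c, whose seed is different. The species prefix of a row names the species of the reference entry and not the turtle.
xtr-miR-16c: uAGCAGCAcguaaauacuggag
dre-miR-16b: uAGCAGCAcguaaauauuggag
hsa-miR-16-5p: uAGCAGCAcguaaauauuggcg
oan-miR-15c-5p: uAGCAGCAcaucaugguuugu
gga-miR-15a: uAGCAGCAcauaaugguuugu
oan-miR-15c-3p: cAGACCAUucugggcugccuca

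The 5p rows differed outside the seed. Counted from 1 at the 5′ end, xtr-miR-16c differed from dre-miR-16b at 1 base, C17U, and from hsa-miR-16-5p at 2 bases, C17U and A21C. The step from oan-miR-15c-5p to gga-miR-15a was the single change C12A, and dre-miR-15b-5p was oan-miR-15c-5p with 1 more base at its 3′ end. Between xtr-miR-16c and oan-miR-15c-5p, 8 of 21 bases differed, all from position 10 on. Of the 18 family rows that were 5p or carried no arm, 15 had the shared seed at bases 2 to 8. fru-miR-15b differed from dre-miR-15b-5p inside the seed, by A8G, ssa-miR-15c-5p had the seed of fru-miR-15b, and ssa-miR-15a-5p held the shared letters farther from its 5′ end. No row outside the family had the 5p seed at bases 2 to 8, and none had the seed of oan-miR-15c-3p.

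Several rows stood for the same reads. The 20 rows held 14 distinct sets of counts, and 10 rows had exactly the counts of another member. The 3 miR-15a rows were identical in counts, as were hsa-miR-16-5p, gga-miR-16-5p and ppy-miR-16, although their 3′ ends differ. Joining rows that share 16 consecutive bases left 8 sequence groups, each described by its most counted row, and no row outside the family joined them. miR-16 and miR-16c fell into 1 group by this rule, because their difference lies at base 17, and into separate groups when 18 shared bases were asked for, which gave 9. Their levels are described separately here. Family shares, sums, medians and calls by sequence group used 16 shared bases, so in those xtr-miR-16c stood for both.

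miR-16c was the main member of the family at every temperature. The counts of xtr-miR-16c were 23552, 22100 and 18492 in the 26, 29 and 32 °C libraries. Scaled to an equal total per library (CPM), these were 2519, 2296 and 1923. Its level was lower in each warmer library, and the intervals of the 3 values did not overlap (2487 to 2552, 2266 to 2327 and 1896 to 1951 CPM). It held 96.4% of the family's counts at 26 °C (96.2% to 96.7%), 95.6% at 29 °C (95.3% to 95.8%) and 96.8% at 32 °C (96.5% to 97.0%), with 1 row per sequence group. These shares leave out the counts of the miR-16 rows, which fall into the same sequence group. Among the 973 sequence groups of the table xtr-miR-16c was number 21, 23 and 23 by counts.

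The differences in miR-16c were small. Its log2 ratio was -0.39 for 32 over 26 °C (-0.42 to -0.36), -0.13 for 29 over 26 °C (-0.16 to -0.11) and -0.26 for 32 over 29 °C (-0.28 to -0.23). The median log2 ratio over all rows tested was -0.13 for 32 over 26 °C, 0.00053 for 29 over 26 °C and -0.18 for 32 over 29 °C. Trimmed-mean (TMM) scaling raised every log2 ratio of 32 over 26 °C by 0.21 and of 32 over 29 °C by 0.20, and under it miR-16c stood at -0.17 (-0.20 to -0.15) and -0.06 (-0.09 to -0.03). The direction held under this scaling, while the size for 32 over 29 °C came close to equality.

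miR-16, the broadly expressed member best known from mammals, was far less counted than miR-16c and level across temperatures within counting error. hsa-miR-16-5p had 117, 122 and 127 counts at 26, 29 and 32 °C, or 12.5, 12.7 and 13.2 CPM. Its log2 ratio for 32 over 26 °C was 0.08 (-0.30 to 0.45), an interval that allows a difference of up to 1.37-fold higher or down to 0.815-fold. dre-miR-16b, which ends as miR-16c does, had 174, 174 and 172 counts.

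Both miR-16 rows are 1 or 2 bases away from a far more abundant row. xtr-miR-16c had 201 times the counts of hsa-miR-16-5p at 26 °C, 181 times at 29 °C and 146 times at 32 °C. dre-miR-16b, at 1 base from miR-16c, had 57, 52 and 45 more counts than hsa-miR-16-5p, at 2 bases from it. The share of reads of 1 row counted on another was not tested. Against xtr-miR-16c, a ratio that no scaling between libraries affects, hsa-miR-16-5p had a log2 odds ratio of 0.47 for 32 over 26 °C (0.09 to 0.84).

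The miR-15b and miR-15c 5p strands were highest in the 29 °C library. oan-miR-15c-5p had 508, 644 and 435 counts at 26, 29 and 32 °C, or 54.3, 66.9 and 45.2 CPM. With 514, 642 and 432 counts, dre-miR-15b-5p gave almost the same values. Both rows are in effect 1 measurement, which cannot separate miR-15b from miR-15c. The log2 ratio of oan-miR-15c-5p was 0.30 for 29 over 26 °C (0.13 to 0.47), -0.26 for 32 over 26 °C (-0.45 to -0.08) and -0.56 for 32 over 29 °C (-0.74 to -0.39). With TMM factors the value for 32 over 26 °C was -0.05 (-0.24 to 0.14), an interval that includes equality in the same direction, and 29 °C remained highest at 0.32 over 26 °C (0.15 to 0.49).

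Rows with another 3′ end of miR-15b had fewer counts in the same order over the libraries. gga-miR-15b-5p, which differs from dre-miR-15b-5p by U21C, had 123, 166 and 116 counts, and oan-miR-15b-5p had the same. mmu-miR-15b-5p and cfa-miR-15b had 16, 21 and 15 counts each. For every 100 counts of oan-miR-15c-5p there were 24.2 of gga-miR-15b-5p at 26 °C, 25.8 at 29 °C and 26.7 at 32 °C, with intervals that overlapped widely.

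miR-15a followed the order of miR-15c at a lower level. The row gga-miR-15a had 128, 158 and 119 counts, which is 13.7, 16.4 and 12.4 CPM. Its log2 ratio was 0.26 for 29 over 26 °C (-0.08 to 0.61) and -0.15 for 32 over 26 °C (-0.52 to 0.23), both with intervals that include equality, and the latter changed sign to 0.07 (-0.30 to 0.44) with TMM factors. For 32 over 29 °C the log2 ratio was -0.41 (-0.76 to -0.06), which became -0.21 (-0.57 to 0.14) with TMM factors. For every 100 counts of oan-miR-15c-5p there were 25.2, 24.5 and 27.4 of gga-miR-15a, and the intervals of their ratio between libraries all included equality. The sequences of these rows differ by C12A alone, and how far they share reads was not tested.

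**Figure D1:**
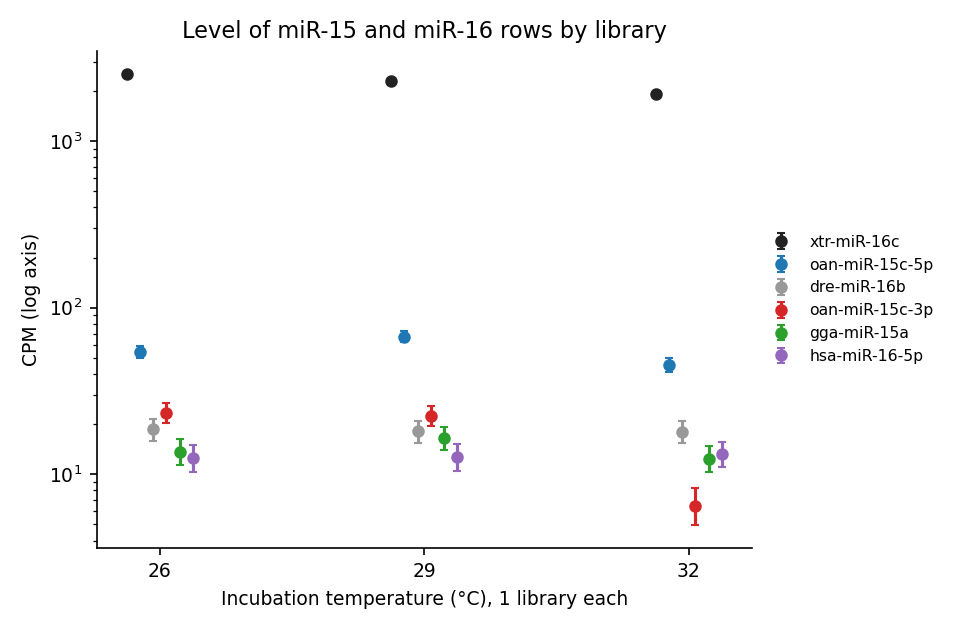
Level of 6 family rows in CPM (log axis) in the library of each incubation temperature, with 95% exact Poisson intervals of the count. xtr-miR-16c lies between 1923 and 2519 CPM, oan-miR-15c-5p is highest at 29 °C, and oan-miR-15c-3p is at 6.45 CPM at 32 °C against 23.3 and 22.4 CPM in the cooler libraries.

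Within the family, the miR-15 5p strands were higher relative to miR-16c at 29 °C than at 26 °C. There were 2.16 counts of oan-miR-15c-5p per 100 of xtr-miR-16c at 26 °C (1.97 to 2.36), 2.91 at 29 °C (2.69 to 3.15) and 2.35 at 32 °C (2.13 to 2.59). The 29 °C value lay above both others. The log2 odds ratio for 29 over 26 °C was 0.43 for oan-miR-15c-5p (0.26 to 0.61) and 0.40 for gga-miR-15a (0.05 to 0.74). For 32 over 26 °C it was 0.13 (-0.07 to 0.31) and 0.24 (-0.13 to 0.62), so those libraries were not separable at this depth. The rows oan-miR-15c-5p and gga-miR-15a may share reads, so their values may not be independent.

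The one family member at least 2-fold apart was the 3p strand of miR-15c, which was lower in the 32 °C library. Its counts were 218, 216 and 62 in the 26, 29 and 32 °C libraries, which is 23.3, 22.4 and 6.45 CPM for oan-miR-15c-3p. The cooler libraries were alike within counting error, with a log2 ratio of -0.06 for 29 over 26 °C (-0.33 to 0.22), and the 32 °C interval of 4.94 to 8.27 CPM lay below both. The log2 ratio was -1.85 for 32 over 26 °C (-2.29 to -1.44) and -1.80 for 32 over 29 °C (-2.23 to -1.39). TMM factors gave -1.64 (-2.07 to -1.23) and -1.60 (-2.03 to -1.19).

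Rows with 10 or more counts in one library of a pair were compared, and a row was called lower or higher when its ratio was at least 2-fold and its interval left out equality. Of the 20 family rows 15 passed this minimum in each pair. For 32 over 26 °C, 1 of the 15 was called lower and 0 higher, while 13.3% of all 814 rows were lower and 4.42% higher. For 32 over 29 °C the family again had 1 lower and 0 higher, beside 9.67% and 2.73% of 807 rows. For 29 over 26 °C it had 0 in either direction, beside 6.28% lower and 4.56% higher of 812 rows. By sequence group, 1 of 4 was lower for 32 over 26 °C and for 32 over 29 °C, beside 70 and 50 of 371 in the table, so these counts do not set the family apart. The family's median log2 ratio over its 4 groups was -0.34, 0.10 and -0.49 for 32 over 26, 29 over 26 and 32 over 29 °C. The corresponding medians of the 371 groups were -0.21, -0.03 and -0.21.

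The share of rows called lower was also taken among rows about as abundant as oan-miR-15c-3p. Among the 217 rows with a mean of 5 to 50 CPM, 18 (8.29%) were called lower for 32 over 26 °C and 23 (10.6%) for 32 over 29 °C. At least as low as oan-miR-15c-3p itself were 8 other rows (5 sequence groups) for 32 over 26 °C and 6 other rows (5 groups) for 32 over 29 °C. The only ones with a miRNA name were rows of miR-182-3p for 32 over 26 °C, and of miR-202-3p and miR-223-5p for 32 over 29 °C. All others were predicted small RNAs. The window was chosen after the values were seen.

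**Figure D2:**
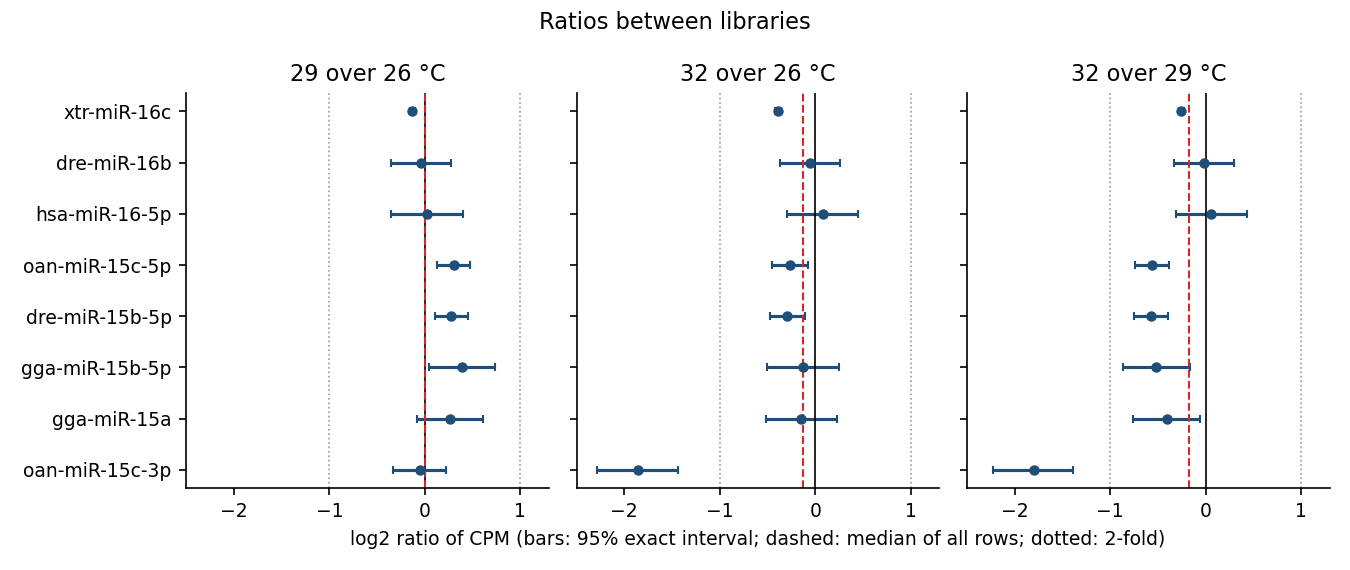
log2 ratio of CPM for 8 family rows in each pair of libraries, with 95% exact conditional intervals, the median of all rows tested (dashed) and 2-fold limits (dotted). oan-miR-15c-3p lies beyond 2-fold lower in both pairs that include 32 °C, and the 5p rows lie within 2-fold in every pair.

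**Figure D3:**
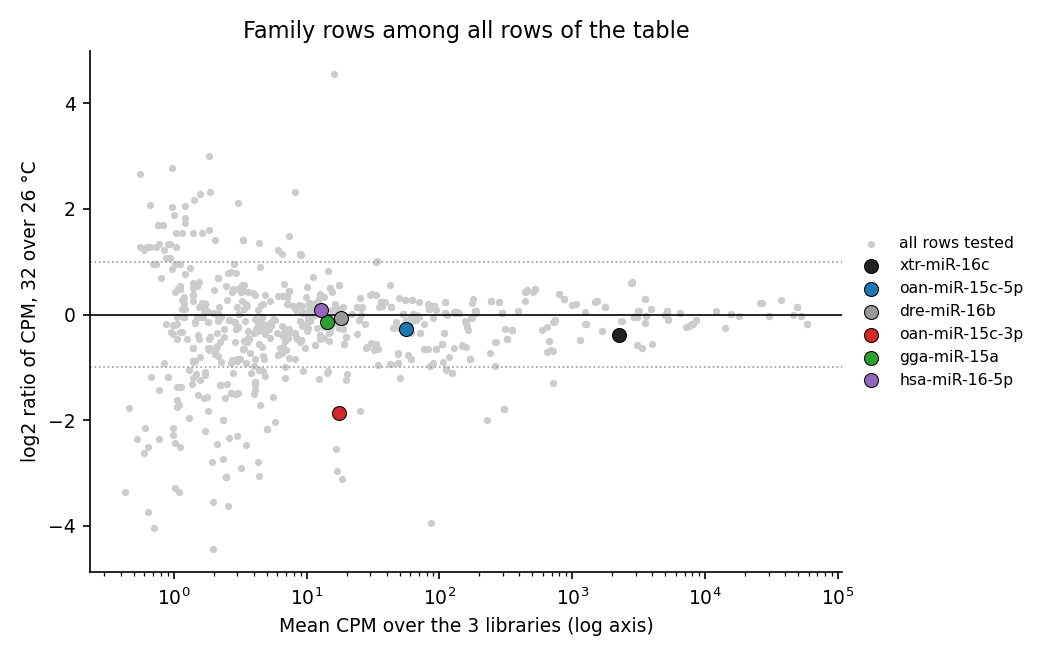
log2 ratio of CPM for 32 over 26 °C against the mean CPM over the libraries (log axis), for all rows compared in this pair that had no count of 0. oan-miR-15c-3p stands at -1.85, while the 5p rows of the family stand between -0.39 and 0.08.

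The 2 rows named as strands of miR-15c were therefore not lower by the same amount. There were 42.9 counts of oan-miR-15c-3p per 100 of oan-miR-15c-5p at 26 °C (36.4 to 50.4), 33.5 at 29 °C (28.6 to 39.2) and 14.3 at 32 °C (10.7 to 18.6). The 32 °C value lay below both others, whose intervals overlapped. The log2 odds ratio of the 5p to the 3p strand was 0.36 for 29 over 26 °C (0.03 to 0.68) and 1.23 for 32 over 29 °C (0.78 to 1.70). For 32 over 26 °C it was 1.59 (1.13 to 2.06), and with other miR-15b and miR-15a rows in place of oan-miR-15c-5p it ranged from 1.56 to 1.73. For 29 over 26 °C the interval included equality with gga-miR-15a as the 5p row, at a log2 odds ratio of 3p to 5p of -0.32 (-0.77 to 0.13). The shift at 32 °C was thus seen with each of these 5p rows, and the smaller one at 29 °C was not clear of counting error with all of them. The 5p rows are near-identical in sequence and were all set against the same 3p counts, so they are not independent checks.

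The table does not show which hairpin the 5p reads came from. Between oan-miR-15c-3p and oan-miR-15c-5p the longest run of paired bases without a gap, with G to U pairs allowed, was 8 bases. It was 9 with gga-miR-15a, 6 with xtr-miR-16c and 5 with hsa-miR-16-5p. The pairing therefore does not separate miR-15c from miR-15a as partner strand. aca-miR-15b-3p, which differs from oan-miR-15c-3p by A7G, had 1, 0 and 0 counts, so nearly all 3p counts were those of oan-miR-15c-3p. No 3p row of miR-15a, miR-16 or miR-16c was analysed here.

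Strand ratios were computed for every hairpin whose strands both reached 30 counts over the libraries, and names whose 5p and 3p strands fell into the same sequence groups were counted once. Some of the 48 left still shared a strand with another, such as miR-199b with miR-199a. Without the 6 that shared a strand with a more counted hairpin, 42 remained. The 42 include miR-126 and miR-203b, whose rows named 5p and 3p had nearly the same counts. For miR-126 these were 77871, 81466 and 71053 against 77218, 80676 and 70358. For miR-203b they were 7, 15 and 10 against 7, 14 and 10. Whether such rows are 2 separate strands was not tested. For 32 over 26 °C, 6 of 48 hairpins (12.5%) were at least 2-fold apart with an interval that left out equality, miR-15c among them. For 32 over 29 °C miR-15c was the only one (2.08%), and for 29 over 26 °C the only one was miR-122 (2.08%). Among the 42 the numbers called were again 6, 1 and 1 and the same hairpins. In both pairs with 32 °C, miR-15c had the interval bound farthest from equality of the 48 and of the 42. The next most certain differences for 32 over 26 °C were those of let-7c at a log2 odds ratio of 1.69 (1.04 to 2.38), miR-145 at 0.93 (0.82 to 1.04), which is under 2-fold, and miR-148a at -1.01 (-1.21 to -0.81). In these 3, as in miR-15c, the less counted strand had the lower ratio. The other hairpins called, miR-24, miR-301a and miR-122, stood at -1.53 (-2.31 to -0.80), -1.01 (-1.31 to -0.72) and 1.28 (0.14 to 2.66) and are named after their values were seen. In miR-301a it was the more counted strand that had the lower ratio.

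A lower ratio in the less counted strand than in the more counted one was common in every pair of libraries. The less counted strands of the 48 hairpins had a median log2 ratio of -0.29 for 32 over 26 °C, and the more counted strands 0.02. In 32 of the 48, and in 27 of the 42, the less counted strand had the lower ratio. Taken without its partner, the less counted strand was down by 2-fold or more in 7 hairpins. These include miR-182 and miR-202, where the more counted strand was lower still. Their log2 ratios were -1.48 (less counted) and -2.17 (more counted) for miR-182, and -1.21 and -1.30 for miR-202. At -1.85, oan-miR-15c-3p was the second lowest of the 48 less counted strands for 32 over 26 °C. The less counted strand also had the lower ratio in 33 of the 48 for 29 over 26 °C and in 32 for 32 over 29 °C.

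**Figure D4:**
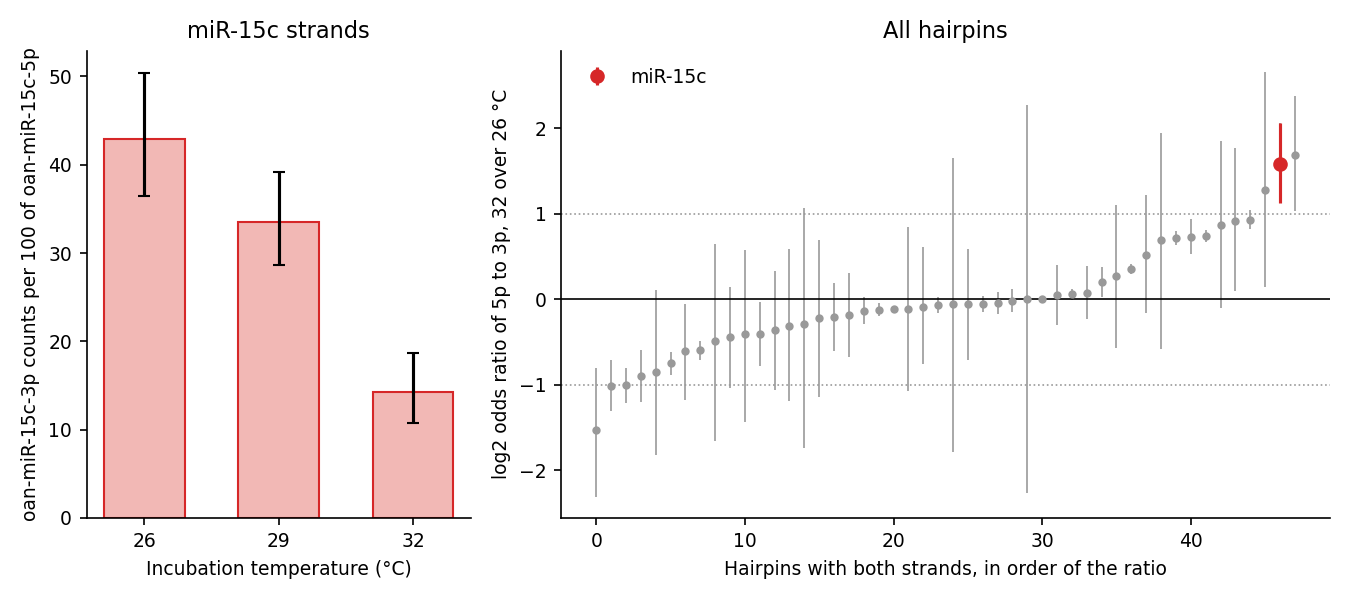
Counts of oan-miR-15c-3p per 100 of oan-miR-15c-5p by incubation temperature (left, bars from 0), and the log2 odds ratio of 5p to 3p for 32 over 26 °C in 48 hairpins (right), all with 95% exact intervals. The 3p strand of miR-15c was at 42.9, 33.5 and 14.3 per 100, and miR-15c lies near the top of the hairpins at 1.59.

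The tissue held markers of several cell types. On the table total, the summed markers of gonad, endothelium, pancreas, leukocytes and muscle were lowest at 32 °C, as was oan-miR-15c-3p, but by unlike amounts. Their log2 ratios for 32 over 26 °C were -1.30, -0.18, -1.02, -0.10 and -0.48, beside -1.85 for oan-miR-15c-3p. Those of endothelium and leukocytes turn positive when raised by the TMM shift of 0.21, so under it these 2 were not lowest at 32 °C. For 29 over 26 °C oan-miR-15c-3p was level within counting error. The log2 ratios of the same sums in that pair were 0.34, 0.02, -0.91, 0.97 and -0.38. The gonad miRNA miR-202 summed to 812.7, 1032 and 330.5 CPM at 26, 29 and 32 °C over 3 sequence groups, none at 0. Kidney markers (miR-192, miR-194, miR-215 and miR-30) summed to 11115, 9071 and 9319 CPM over 19 groups, of which 1, 1 and 3 were at 0. Their rows differed in order. dre-miR-192 (38213, 31732 and 25186 counts), mmu-miR-194-5p (7229, 7058 and 6899) and hsa-miR-215-5p (628, 595 and 508) were lowest at 32 °C. The more counted hsa-miR-30c-5p had 50205, 41863 and 51485 counts and was lowest at 29 °C. Mesenchyme markers (miR-143, miR-145, miR-199 and miR-214) summed to 29011, 34606 and 29075 CPM, and endothelial miR-126 to 8703, 8844 and 7695 CPM. Markers of cells outside the complex moved too, with liver miR-122 at 608.2, 147.1 and 175.5 CPM and pancreas miR-216 and miR-217 at 171, 91.0 and 84.0 CPM. Markers of the labelled gonad and kidney were thus detected in all 3 libraries, and no adrenal marker was used. Leukocyte markers summed to 62.0, 121 and 57.9 CPM, and those of muscle to 153, 118 and 110 CPM. Red-cell markers summed to 5.24, 2.08 and 2.91 CPM over 3 groups, of which 1, 1 and 0 were at 0. Of the 2 neuron markers looked for, only miR-137 had rows, and it summed to 6.31, 13.5 and 15.1 CPM. The part of these cell types in the level of oan-miR-15c-3p was not tested.

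By the largest difference in log2 CPM around each row's own mean over the 3 libraries, the rows most like oan-miR-15c-3p among 101 named sequence groups were mmu-miR-202-5p, fru-miR-152 and gga-miR-148a-5p. mmu-miR-202-5p had 7500, 9800 and 3140 counts and differed by at most 0.32. fru-miR-152 had 340, 467 and 180 counts and differed by at most 0.46, and gga-miR-148a-5p by 0.55. The more counted row dre-miR-152 was not alike, at 561, 614 and 547 counts, so the likeness holds for the fru-miR-152 row and not for miR-152 as a whole. For xtr-miR-16c the nearest rows were aca-miR-130b-3p with 17364, 16191 and 14313 counts, at 0.05, bta-miR-2478 at 0.07 and xla-miR-429 at 0.08. With 3 libraries, such likeness is a description of 3 values.

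Members below 5 counts in every library were fru-miR-15b, ssa-miR-15a-5p, ssa-miR-15c-5p, aca-miR-15a-5p and aca-miR-15b-3p. fru-miR-15b had 3, 3 and 4 counts and ssa-miR-15a-5p 4, 3 and 1. ssa-miR-15c-5p had 1 count, at 32 °C, and aca-miR-15a-5p had 1 at 29 and 1 at 32 °C. Taking 3 counts as the one-sided limit of a count of 0, a 0 allows up to 0.321 CPM at 26 °C and 0.312 CPM at 29 and 32 °C, so no difference in these rows was detectable at this depth.

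Some miRNAs hold the seed letters of the 5p strands in a shifted place, and none of those named here was called apart. miR-103 and miR-107 carry these letters from their first base and are known in mammals for roles in metabolism. hsa-miR-103a-3p had 23278, 22600 and 22123 counts, a log2 ratio of -0.11 for 32 over 26 °C (-0.14 to -0.09), which is about the median of all rows and turns positive when raised by the TMM shift. bta-miR-107 had 3261, 2865 and 2769 counts and a log2 ratio of -0.28 (-0.35 to -0.20). ccr-miR-457b, a row named from a fish, which starts 1 base later than miR-16c and then differs from it by G10A alone, had 33, 39 and 24 counts. It was also lowest at 32 °C, with log2 ratios of -0.50 over 26 °C (-1.32 to 0.30) and -0.70 over 29 °C (-1.50 to 0.07), both with intervals that include equality. Its ratio to xtr-miR-16c was 0.140, 0.176 and 0.130 per 100. Of the mammalian cluster neighbours of miR-424, the rows of miR-450 had 1, 0 and 0 counts each, and no miR-503, miR-542 or miR-351 row was analysed here. No row named miR-322 was analysed either.

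The other miRNAs that act on cell-cycle regulators were compared in the same way. The list named let-7 with miR-98, miR-34 with miR-449, miR-221, miR-222, miR-24, miR-26 and members of the miR-17 cluster and its paralogs, though not miR-363. It also named miR-503, for which no row was analysed. It held 209 rows in 58 sequence groups, 30 of which had enough counts for 32 over 26 °C. Of the 30, 2 were called lower and 0 higher, beside 70 and 24 of the 371 groups of the table. Their median log2 ratio was 0.0065 beside -0.21 for the 371. The 371 groups include predicted small RNAs, which the list does not, so these values do not set the list apart from other named miRNAs. The 2 groups called lower were chi-miR-24-5p and hsa-let-7c-3p. Both were less counted strands, with 54, 40 and 23 counts for chi-miR-24-5p and 77, 55 and 27 for hsa-let-7c-3p. For 32 over 29 °C the 2 of 30 called lower were hsa-let-7c-3p and gga-miR-92-5p, with 0 higher, beside 50 lower and 18 higher of the 371. For 29 over 26 °C 0 of 29 were called in either direction, beside 34 lower and 22 higher of the 371.

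The abundant members of that list lay on both sides of equality. hsa-miR-92a-3p, of the growth-promoting miR-17 cluster, had 75166, 74227 and 66221 counts and a log2 ratio of -0.22 for 32 over 26 °C. gga-miR-34b-5p, of a family that p53 induces in mammals, had 45365, 37077 and 31837 counts and a log2 ratio of -0.55. gga-let-7i, of the let-7 family that restrains growth, had 26927, 40083 and 33815 counts, with its highest level at 29 °C like miR-15c-5p. miR-221 and miR-222, which repress a cyclin-dependent kinase inhibitor in mammals, were highest at 32 °C, at 7637, 7545 and 9614 counts for bta-miR-221 and 6778, 6765 and 9148 for gga-miR-222a.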

How the data were processed

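The labels gave the temperature of each library, and column names tied it to its counts. The deposited table gave a raw read count per row, per the file headers, and a deposited TPM that equalled the count over the column total with no length term, within 0.01%. Totals were 9348882, 9624436 and 9613861 counts at 26, 29 and 32 °C. FastQC and Bowtie are named in the submitters' processing notes. Builds, mismatches and the handling of reads that match several rows are not given in the sources used here, and no genome was used.

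Members were all rows the name rule found. The members and lists were chosen with earlier results of these data known. Ratios used counts over column totals, with Clopper-Pearson conditional intervals, and strand ratios used Fisher's conditional odds ratio. Both steps were run on simulated Poisson counts, which checks the code and not the spread between samples or shared reads. The text names the members, seed relatives, miR-424 cluster neighbours, the 3 rows nearest to the main 5p and 3p rows (at least 300 counts), the miR-15c hairpin and the 3 others with the most certain strand difference for 32 over 26 °C, and the most counted cell-cycle miRNAs. Alternatives used edgeR 4.0.16 (TMM), DESeq2 1.42.0 (size factors), other totals, count minimums, interval rules and shared bases. Software was Python 3.11.15, scipy 1.17.1 and R 4.3.3.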

Additional observations from a re-analysis of the deposited data

How the results depend on the processing

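No paired analysis was possible because only 1 library came from each temperature. The log2 ratio of the summed family for 32 over 26 °C was -0.39 on the table total, -0.18 with TMM factors, -0.23 with DESeq2 size factors and -0.36 on the sequence-group total. For 32 over 29 °C it was -0.27, and -0.076 and -0.12 with TMM factors and size factors. Without xtr-miR-16c, an alternative chosen after seeing the data, the sum stood at -0.53 for 32 over 26 °C and -0.72 for 32 over 29 °C, and it changed sign from -0.12 to 0.20 for 29 over 26 °C, since miR-16c makes up most of the sum. That remainder still holds the 3p row oan-miR-15c-3p, at 218, 216 and 62 counts. Its main 5p rows, dre-miR-15b-5p and gga-miR-15a, stood at -0.29 and -0.15 for 32 over 26 °C. The number of sequence groups at least 2-fold apart did not change under any scaling, count minimum, interval rule or joining rule run. The strand ratio of miR-15c with other 5p rows stayed within the interval of its main value, and the pair with ssa-miR-15c-5p gave no value at 1 count. Of 18 log2 ratios of 6 member rows, 6 left their interval with TMM factors, 2 with size factors and 1 on the sequence-group total. The 1 hairpin apart for 29 over 26 °C became 0 with at least 100 counts per strand, and the 1 for 32 over 29 °C became 2 with at least 10.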
